A study of Mus musculus with 18 samples.

Results

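The comparison described here set J774 cells given titanium dioxide (TiO2) particles and estradiol against J774 cells given TiO2 particles and vehicle, and asked what estradiol did to gene expression in macrophages that had met TiO2. J774 is a mouse macrophage cell line. Arrays were taken by the labels alone, 3 for TiO2 plus estradiol and 3 for TiO2, together 6 of the 18 arrays of the series. Both groups received 10 µg of TiO2 per well in 24 well plates for 24 h, and the group with estradiol also had 2 µg/mL of 17-β estradiol throughout. The other 12 arrays were 3 each of talc plus estradiol, talc, estradiol without particles and vehicle, with the same doses and time. All cells grew in medium free of phenol red, a dye with weak estrogenic activity. The whole study used 1 cell line and 1 estradiol dose. No label ties arrays to separate cultures, so a p-value here covers only the spread between arrays of a group, and that spread may be technical.

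Estradiol enters cells and binds the nuclear receptors encoded by Esr1 and Esr2, which then act on genes through estrogen response elements or through other transcription factors. Gper1 encodes a membrane receptor that also responds to estradiol. In macrophages, ligand-bound estrogen receptor alpha is known mainly as a brake on NF-kB driven cytokine genes, and macrophages take up TiO2 particles by phagocytosis into lysosomes.

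The cells carried the macrophage transcripts that the label calls for. On a log2 scale of intensity, Cd68, a lysosomal glycoprotein of macrophages, stood at 12.73, 12.71 and 12.69 with TiO2 plus estradiol, against 12.66, 12.81 and 12.76 with TiO2. The receptor for the growth factor CSF1, Csf1r, stood at 10.92, 10.94 and 10.72 with TiO2 plus estradiol and at 10.82, 10.99 and 10.88 with TiO2. The groups overlapped for both genes.

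The 3 TiO2 plus estradiol arrays stood apart in the upper quartile of their probe-set intensities, which was 233.5, 231.6 and 222.2, against 239.2, 239.5 and 249.1 on the TiO2 arrays, and it lay between 237.9 and 247.3 on the other 12. By this measure the TiO2 plus estradiol arrays were the lowest of all 18, and their mean was 5.55% below that of TiO2 (exact permutation test, two-sided, p = 0.10, the smallest that 3 arrays against 3 allow). The upper quartile of gene values did the same, at 7.10, 7.09 and 7.05 log2 units, against 7.16 or more with TiO2 and 7.14 or more elsewhere. The lower quartile, the median, the 95th percentile and the median gene did not set them apart from all other arrays. The median probe-set intensity was 46.3, 46.7 and 45.6 with TiO2 plus estradiol, against 46.9, 46.7 and 47.1 with TiO2, and reached down to 46.3 on the other arrays. The 95th percentile averaged 1366 with TiO2 plus estradiol and 1394 with TiO2, with overlapping arrays. The lower quartile was 0.838% higher with TiO2 plus estradiol, and the median gene stood at 4.81 log2 units with TiO2 plus estradiol and 4.73 with TiO2. TiO2 plus estradiol and TiO2 did not overlap in the median probe-set intensity or in the median gene. The spread within both groups was also wider than elsewhere. The median SD of a gene was 0.170 log2 units with TiO2 plus estradiol and 0.176 with TiO2, and between 0.141 and 0.153 in the other 4 groups. Array numbers followed the order of the groups, so array order and group cannot be told apart.

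**Figure D1:**
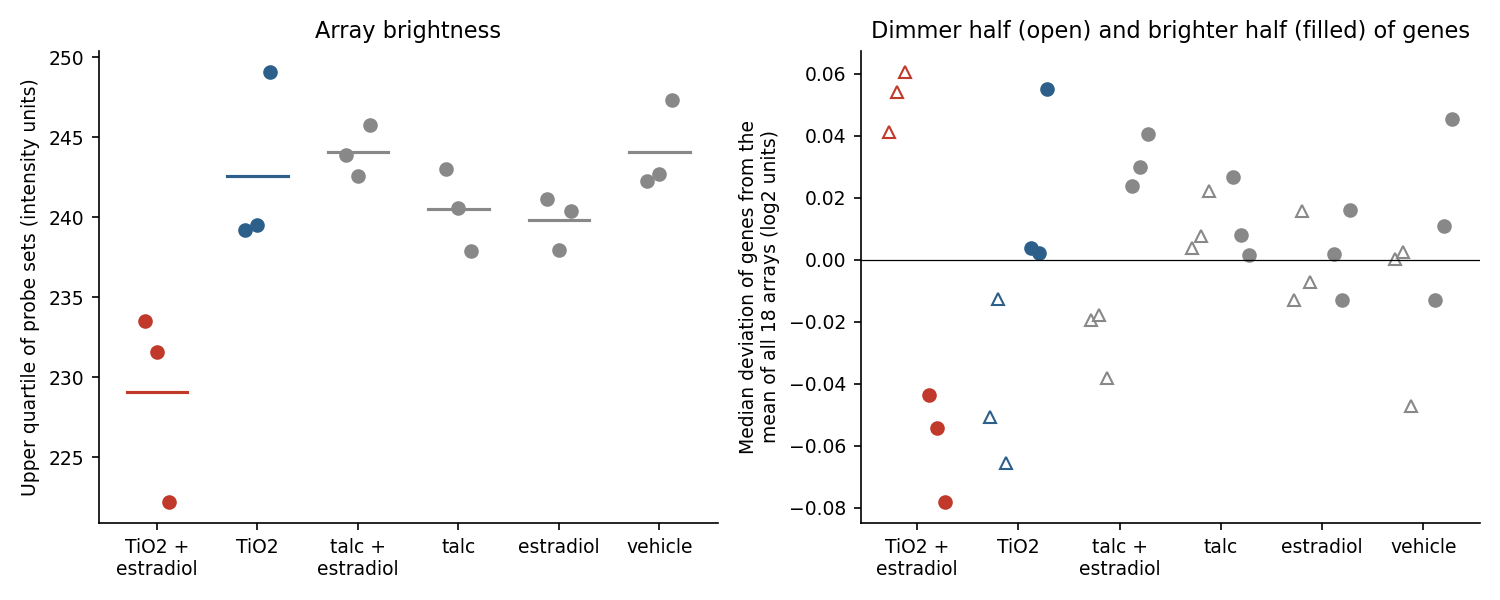
Left, the upper quartile of probe-set intensity on each of the 18 arrays (points) with the group mean (line); the TiO2 plus estradiol arrays, at 222.2 to 233.5, lie below every other array. Right, the median deviation of genes from their mean over all 18 arrays, in log2 units, for genes below the median level (open triangles) and above it (filled circles); on the TiO2 plus estradiol arrays every open triangle lies above 0.04 and every filled circle below -0.04.

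Of 23102 genes, 2 passed at an adjusted p under 0.05 when estradiol was added to TiO2 (0.00866%; limma with Benjamini-Hochberg adjustment, fitted to all 18 arrays). The long noncoding RNA D630033O11Rik rose and the lipoyltransferase Lipt1 fell. Counting these, 3012 genes had an unadjusted p under 0.05 (13%), of which 1475 were higher (6.38%) and 1537 lower (6.65%). That count depended on the scaling of the arrays. Of the same 23102 genes it was 2096 after quantile normalization, 1461 with the arrays' upper quartile as a covariate and 3994 after subtraction of upper quartiles. The upper quartile of gene values did not overlap between TiO2 plus estradiol and TiO2, so a fit with this covariate cannot fully separate it from estradiol. Differences were small: 24 genes (0.104%) differed by 2-fold or more, 10 higher and 14 lower, and the 95% interval stayed inside 2-fold on both sides for 96.6% of genes. The median standard error of a difference was 0.151 log2 units.

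D630033O11Rik had log2 intensities of 3.82, 3.98 and 3.88 with TiO2 plus estradiol, against 3.18, 2.83 and 3.12 with TiO2. The groups did not overlap, and the difference was 0.85 ± 0.12 (SE) with an adjusted p of 0.0385 in limma. It is a dim gene, at percentile 17.8 of all genes by level, and 2 of its 3 probe sets were higher. Without particles it stood at 3.04 ± 0.09 with estradiol and 3.36 ± 0.09 with vehicle (SD, n = 3 each), so the estradiol difference there had the opposite sign, at -0.32 ± 0.12 (SE).

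Lipt1 attaches lipoyl groups to the mitochondrial dehydrogenase complexes that feed the citric acid cycle. It had 4.31, 4.24 and 4.13 with TiO2 plus estradiol, against 4.93, 5.08 and 5.39 with TiO2. All arrays of the combined treatment lay below all arrays of TiO2, with a difference of -0.90 ± 0.13 (SE) and an adjusted p of 0.0414 in limma. Of its 7 probe sets 5 were lower, and the brightest of them gave 0.09, the opposite sign. Both calls depended on single arrays: neither gene passed when any array of the comparison other than TiO2 replicate 1 was left out.

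The promoter windows of both genes are shown because each holds a copy of the estrogen response element's core letters. RefSeq windows (GRCm38.p6) ran over 250 bases before and 50 bases after a transcript's start. D630033O11Rik had 2 such windows and Lipt1 3, and the one with a match is printed for each, 5′ to 3′ on the plus strand, with the match in capitals. The windows lie at chr9:43263883-43264182 and at chr1:37871488-37871787.
D630033O11Rik: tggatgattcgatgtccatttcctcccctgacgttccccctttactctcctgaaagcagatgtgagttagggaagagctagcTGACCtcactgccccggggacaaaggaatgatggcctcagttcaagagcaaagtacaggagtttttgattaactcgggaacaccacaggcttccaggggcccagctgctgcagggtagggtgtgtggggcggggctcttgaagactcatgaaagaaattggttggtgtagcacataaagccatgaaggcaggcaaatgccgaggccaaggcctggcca
Lipt1: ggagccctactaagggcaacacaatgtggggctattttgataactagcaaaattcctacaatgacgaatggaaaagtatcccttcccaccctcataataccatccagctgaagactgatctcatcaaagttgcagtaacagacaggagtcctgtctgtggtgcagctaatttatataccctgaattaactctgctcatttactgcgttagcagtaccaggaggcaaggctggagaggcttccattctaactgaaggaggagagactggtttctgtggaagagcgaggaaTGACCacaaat
The letters searched were GGTCA on both strands, which reads TGACC on the other strand, and the full palindrome GGTCANNNTGACC, which contains GGTCA. Of all 32851 promoter windows, 40.5% held GGTCA and 0.07% the palindrome. Among the 20 genes with the smallest p-values, 18 had windows, 23 in number, of which 12, in 11 genes, held GGTCA and 0 the palindrome. A match is a description of letters and not a site.

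The choice of probe sets mattered for most single genes named here. Of 63 genes whose differences are given, the brightest probe set gave the opposite sign in 11, a difference over 1.5 times smaller in 19 and one over 1.5 times larger in 4.

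Below the passing genes, the 10 genes with the smallest p-values in each direction differed by 0.61 to 0.90 log2 units when higher and by -1.26 to -0.50 when lower, and the other 18 did not pass. Gemin4, part of the SMN complex that assembles splicing particles, had 9.35, 9.41 and 9.83 with TiO2 plus estradiol, against 8.63, 8.79 and 8.59 with TiO2. Its groups were apart, with a difference of 0.86 ± 0.15 (adjusted p = 0.104 in limma) from a single probe set, and it stood 0.46 ± 0.15 higher with estradiol in cells without particles as well. Cdkn2b, an inhibitor of cyclin-dependent kinases, had 6.08, 6.06 and 6.16 with TiO2 plus estradiol, against 5.41, 5.59 and 5.35 with TiO2. The difference was 0.65 ± 0.12 (adjusted p = 0.107 in limma), and all 4 of its probe sets were higher. The rest of the higher genes were mostly dim: the noncoding Srrm4os (0.90), the olfactory receptor Olfr490 (0.87), 4930429F11Rik (0.83), 6030407O03Rik (0.74), Mbd3l1 (0.70), the cilium gene Cfap58 (0.61) and the immunoglobulin receptor Fcamr (0.61).

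On the lower side, Il18bp encodes the soluble protein that neutralises interleukin 18. It had 4.78, 5.17 and 4.81 with TiO2 plus estradiol, against 5.57, 5.76 and 5.34 with TiO2. The groups were apart, at -0.64 ± 0.13 (adjusted p = 0.139 in limma), although its brightest probe set gave 0.35. Hagh, the glyoxalase that clears lactoylglutathione, had 6.44, 6.57 and 6.88 with TiO2 plus estradiol, against 7.10, 7.28 and 7.31 with TiO2. Its difference was -0.60 ± 0.11 (adjusted p = 0.107 in limma), and 12 of its 15 probe sets were lower. Tspan4, a tetraspanin of migrating cells, had 6.91, 6.70 and 6.75 with TiO2 plus estradiol, against 7.36, 7.46 and 7.18 with TiO2. It differed by -0.55 ± 0.10 with 10 of 12 probe sets lower, and by -0.08 in its brightest probe set. The noncoding A430018G15Rik had the largest difference of these genes, at -1.26 ± 0.20 (adjusted p = 0.0554 in limma), with 2.31, 2.48 and 2.56 with TiO2 plus estradiol against 3.49, 3.47 and 4.17 with TiO2. It is a dim gene, and its value came from a single probe set. The others were 1700094D03Rik (-0.90), the hair protein gene Tchh (-0.79), the transcription cofactor Sertad3 (-0.60), the UFM1 protease Ufsp1 (-0.51) and 1700121L16Rik (-0.50).

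**Figure D2:**
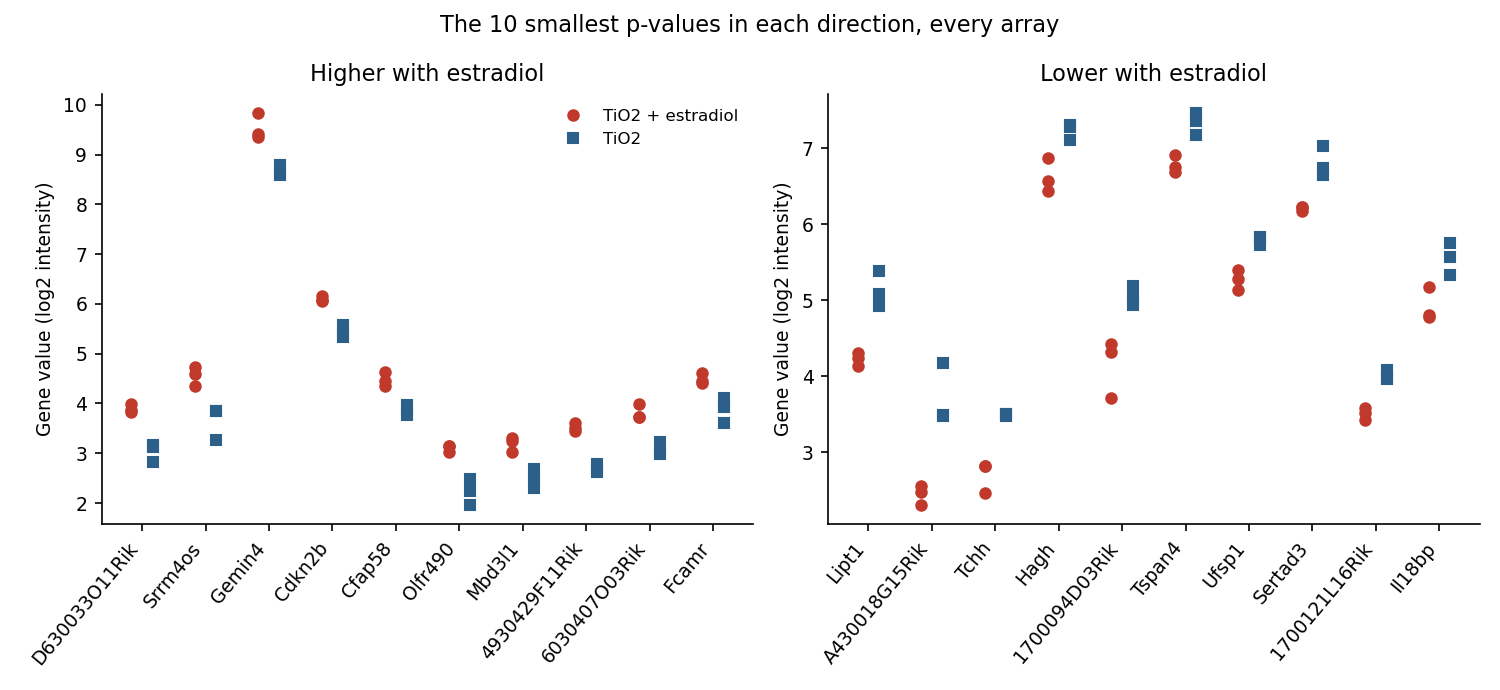
Log2 intensity of the 10 genes with the smallest p-values in each direction, with a point for every array: circles are TiO2 plus estradiol and squares are TiO2. No gene's groups overlap, and 8 of the 10 higher genes lie below a log2 intensity of 5.

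The most widespread pattern followed the level of the gene. In the dimmer 5 of 10 equal bins of genes by mean level, the median difference was between 0.07 and 0.10 log2 units, and in the brightest 4 bins it was between -0.13 and -0.06. Among genes above the median level, 71.2% were lower with TiO2 plus estradiol, with a median of -0.09. Of genes below it, 67.3% were higher, with a median of 0.10. With each gene read from its brightest probe set, 46.6% of those above the median level were lower, with a median of 0.01. The median below that level was then 0.13. In the eighth bin, 436 of 2310 genes had all arrays with estradiol below all TiO2 arrays and 36 had them above, where 8.18% and 7.36% of all genes did so. The other estradiol comparisons gave medians between -0.06 and 0.04 in every bin.

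Each of the 3 TiO2 plus estradiol arrays showed the pattern on its own. The median deviation of genes above the median level, minus that of genes below it, was -0.08, -0.11 and -0.14 log2 units with TiO2 plus estradiol, against 0.05, 0.01 and 0.12 with TiO2. It lay between -0.03 and 0.09 on the other 12 arrays (exact permutation test of the first 2 groups, two-sided, p = 0.10, the smallest possible). TiO2 replicates 1 and 2 lay inside that range. TiO2 plus estradiol replicate 3, with the lowest upper quartile, was at the low end, and TiO2 replicate 3, with the highest, at the high end. Quantile normalization across the arrays took the medians to 0.00 above and 0.01 below the median level. The upper quartile of an array is itself set by its brighter probe sets, so it is no separate measure of the tilt. After quantile normalization, 0 of the 63 genes whose differences are given turned sign. This says little, because most of them were named for small p-values, and so for large differences, in this same comparison. Tlr6 moved from -0.57 to -0.45, Osm from -0.49 to -0.36 and Irf1 from -0.28 to -0.15. Other differences grew, for Lipt1 from -0.90 to -0.96 and for Cdkn2b from 0.65 to 0.75. The part of the tilt in the values of single genes was not tested further.

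**Figure D3:**
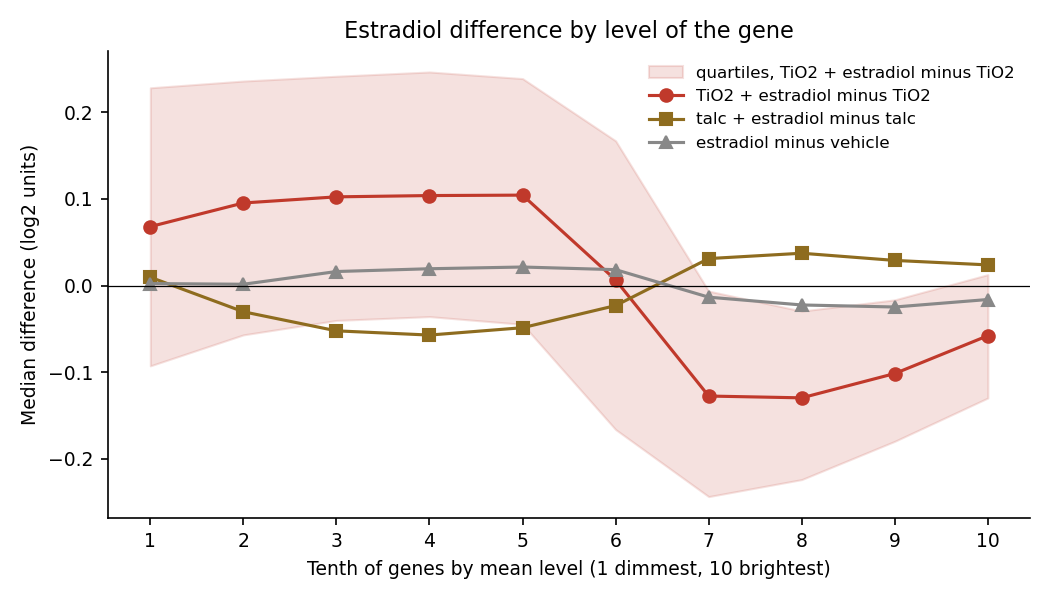
Median log2 difference in each of 10 equal bins of genes ordered by mean level, for TiO2 plus estradiol minus TiO2 (circles, with the quartiles shaded), talc plus estradiol minus talc (squares) and estradiol minus vehicle (triangles). The TiO2 line lies near 0.10 in the dim bins and falls to -0.13 in bins 7 and 8, while the other lines stay between -0.06 and 0.04.

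Estrogen receptors and their targets gave no passing gene. Esr1 had 5.92, 5.45 and 5.33 with TiO2 plus estradiol, against 6.21, 6.06 and 5.80 with TiO2. Replicate 1 with estradiol lay above TiO2 replicate 3, so the groups overlapped, and the difference was -0.45 ± 0.15 (adjusted p = 0.247 in limma), with 10 of 11 probe sets lower and -0.72 in the brightest. With estradiol and no particles, the difference in Esr1 was 0.09 ± 0.15, and the test between the 2 differences gave an adjusted p of 0.544 in limma. Esr2 and Gper1 overlapped between the groups, and the 95% intervals of their differences were -0.27 to 0.31 and -0.20 to 0.27. Of 20 receptor and coregulator genes, 15 lay below 0, with a median of -0.12 beside -0.01 for all genes. The median level of these genes was at percentile 81.9. In the ninth bin of all genes 21.3% were higher, with a median of -0.10. The median of this list became -0.06 after quantile normalization and 0.00 after subtraction of the arrays' upper quartiles. The coactivators Ncoa1 and Ncoa2 were at -0.28 ± 0.12 and -0.27 ± 0.12, and the factor Gata3 at 0.37 ± 0.12.

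The 27 measured estrogen response genes, known mostly from breast and uterine cells, split into 14 above and 13 below 0, with a median of 0.00. Of these, 2 were apart and higher and 2 apart and lower, beside 7.36% and 8.18% of all genes. The groups overlapped for the classical targets Greb1 and Pgr. Greb1 had 3.64, 4.21 and 3.88 with TiO2 plus estradiol, against 3.57, 4.09 and 3.81 with TiO2. Its 95% interval was -0.28 to 0.45. The progesterone receptor gene Pgr had 3.66, 3.46 and 3.79 with TiO2 plus estradiol, against 3.28, 3.65 and 3.09 with TiO2, a difference of 0.30 with an interval of -0.02 to 0.62. Its brightest probe set alone gave 2.45 (adjusted p = 0.177 in limma), and 11 of its 15 probe sets were higher. The potassium channel gene Kcnk5 was at 0.39 ± 0.14 (adjusted p = 0.272 in limma) and the ubiquitin ligase gene Siah2 at -0.36 ± 0.13 (adjusted p = 0.278).

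Estradiol metabolism genes and aryl hydrocarbon receptor targets stood at a median of -0.16 with 13 of 17 below 0, the lowest median of the 31 lists. This median was still -0.16 after quantile normalization, and 0.10 when each gene was read from its brightest probe set. The conjugating enzyme gene Ugt1a6a had 5.08, 5.78 and 5.21 with TiO2 plus estradiol, against 7.48, 6.05 and 6.13 with TiO2. TiO2 replicate 1 was far above the rest, and the difference of -1.19 ± 0.52 came from a single probe set. Sult1e1, the sulfotransferase that inactivates estrogens, had 3.86, 4.24 and 3.30 with TiO2 plus estradiol, against 3.20, 3.27 and 3.35 with TiO2 (0.53 ± 0.21). Its groups overlapped through TiO2 plus estradiol replicate 3. The receptor Ahr was at -0.29 ± 0.13 and the steroid dehydrogenase Hsd17b11 at -0.26 ± 0.10, and both changed sign with the brightest probe set.

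Among genes of macrophage defence, 0 members of any list passed in limma, and the leading members lay on both sides of 0. Tlr6, which pairs with TLR2 to sense bacterial lipopeptides, had 6.44, 6.80 and 6.41 with TiO2 plus estradiol, against 7.04, 7.18 and 7.12 with TiO2 (-0.57 ± 0.13, adjusted p = 0.156 in limma), and its brightest probe set gave -0.13. Tlr12, a receptor for profilin of parasites, had 4.26, 4.28 and 4.40 with TiO2 plus estradiol, against 3.82, 3.84 and 3.80 with TiO2 (0.49 ± 0.18). The groups were apart in both genes. The 22 Toll-like receptor genes and their adaptors had a median of -0.12, which was 0.00 after subtraction of upper quartiles. Their median level was at percentile 79.3, and the eighth bin of all genes had a median of -0.13.

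Cytokine and chemokine genes, the transcripts through which estrogen receptor action in macrophages is best known, stood near 0, with 17 of 31 above it and a median of 0.03. Osm, a cytokine of the interleukin 6 family, had 6.41, 6.43 and 6.28 with TiO2 plus estradiol, against 6.79, 6.83 and 6.98 with TiO2. Its arrays were apart, at -0.49 ± 0.11 (adjusted p = 0.156 in limma). The chemokine gene Ccl3, among the brightest in the cells, was at 0.22 ± 0.10, and Ccl22 at 0.32 ± 0.12. The median level of NF-kB targets and feedback genes was at percentile 87.7, and in the ninth bin of all genes 331 of 2310 were apart and lower. NF-kB targets and feedback genes had a median of -0.04, with 4 of 24 apart and lower, beside 8.18% of all genes, and 0.06 after quantile normalization. The kinase gene Ikbke (-0.26 ± 0.10) and the surface molecules Cd40 (-0.36 ± 0.15) and Cd83 (-0.30 ± 0.13) were the leading members of this list. Their brightest probe sets gave 0.031 for Ikbke, -0.081 for Cd40 and 0.0019 for Cd83.

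Type I interferon response genes had a median of -0.14, with 26 of 37 below 0, and kept a negative median of -0.02 after subtraction of upper quartiles and -0.07 after quantile normalization. Ifi203, a nuclear DNA sensor of the interferon-inducible family, had 8.04, 8.23 and 7.41 with TiO2 plus estradiol, against 8.33, 8.96 and 8.78 with TiO2 (-0.79 ± 0.21, adjusted p = 0.185 in limma, 1 probe set). Stat2, which carries the interferon signal to the nucleus, was at -0.32 ± 0.11 and the transcription factor Irf1 at -0.28 ± 0.11. Against them, the nucleic acid sensor Zbp1 had 4.50, 4.62 and 4.96 with TiO2 plus estradiol, against 4.05, 4.18 and 4.09 with TiO2 (0.59 ± 0.15, adjusted p = 0.171). In all, 6 members were apart and lower and 2 apart and higher, beside 8.18% and 7.36% of all genes.

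Receptors for uptake of particles and dead cells had a median of -0.04, and 0.00 after quantile normalization. The TAM receptor Tyro3 had 4.71, 4.98 and 5.03 with TiO2 plus estradiol, against 4.34, 4.19 and 4.47 with TiO2 (0.57 ± 0.14, adjusted p = 0.163 in limma), while Gas6, the ligand of that receptor family, was at -0.37 ± 0.13. The scavenger receptor Stab1 had 7.14, 7.18 and 6.96 with TiO2 plus estradiol, against 7.36, 7.65 and 7.34 with TiO2 (-0.36 ± 0.10). Lysosomal genes lay close to 0, between -0.19 and 0.29 in 31 members. In the arginase and nitric oxide list the arginase gene Arg1 had 4.30, 4.35 and 4.35 with TiO2 plus estradiol, against 3.58, 3.99 and 3.97 with TiO2 (0.49 ± 0.14, adjusted p = 0.20 in limma), and the arginine transporter gene Slc7a2 was at -0.30 ± 0.12. The median of that list was -0.08, and -0.13 after quantile normalization.

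All 28 mitosis genes lay below 0, with a median of -0.09, which was -0.03 after quantile normalization and 0.04 after subtraction of upper quartiles. The median level of these genes was at percentile 92.2, and in the brightest bin of all genes 29.2% were higher, with a median of -0.06. Cdc25c, the phosphatase that starts mitosis, had 7.08, 7.23 and 7.01 with TiO2 plus estradiol, against 7.42, 7.52 and 7.69 with TiO2 (-0.43 ± 0.11, adjusted p = 0.169 in limma), with -0.13 in its brightest probe set. The checkpoint kinase genes Ttk (-0.23 ± 0.11) and Bub1b (-0.19 ± 0.10) came next. Of 31 DNA replication genes, 27 were below 0, with a median of -0.12 that became -0.03 after quantile normalization. The median level of these genes was at percentile 82.5. In the ninth bin of all genes 21.3% were higher, with a median of -0.10. The clamp loader gene Rfc2 was at -0.31 ± 0.10, the primase gene Prim2 at -0.27 ± 0.09 and Gins2, of the helicase complex, at -0.26 ± 0.11.

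Stress and metabolic lists gave small medians as well. The antioxidant NRF2 targets were at -0.04, with the glutathione transferase gene Gstp1 at 4.22, 4.69 and 4.67 with TiO2 plus estradiol, against 5.22, 5.35 and 5.29 with TiO2 (-0.76 ± 0.24), and 0.46 in the brighter of its 2 probe sets. In the integrated stress response list, with a median of -0.02, Cebpb was at -0.51 ± 0.20, the phosphatase subunit Ppp1r15a at -0.36 ± 0.11 and the hormone gene Fgf21 at 0.46 ± 0.18. Ribosome biogenesis genes had a median of -0.10 and 0.00 after quantile normalization, and the RNA polymerase I subunit Polr1b was their leading member at -0.49 ± 0.14. Over all 31 lists, 23 medians lay below 0. Scalings that shift all genes alike moved that count both ways, to 30 after subtraction of array medians and to 2 after subtraction of upper quartiles, which adds 0.12 to every difference.

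**Figure D4:**
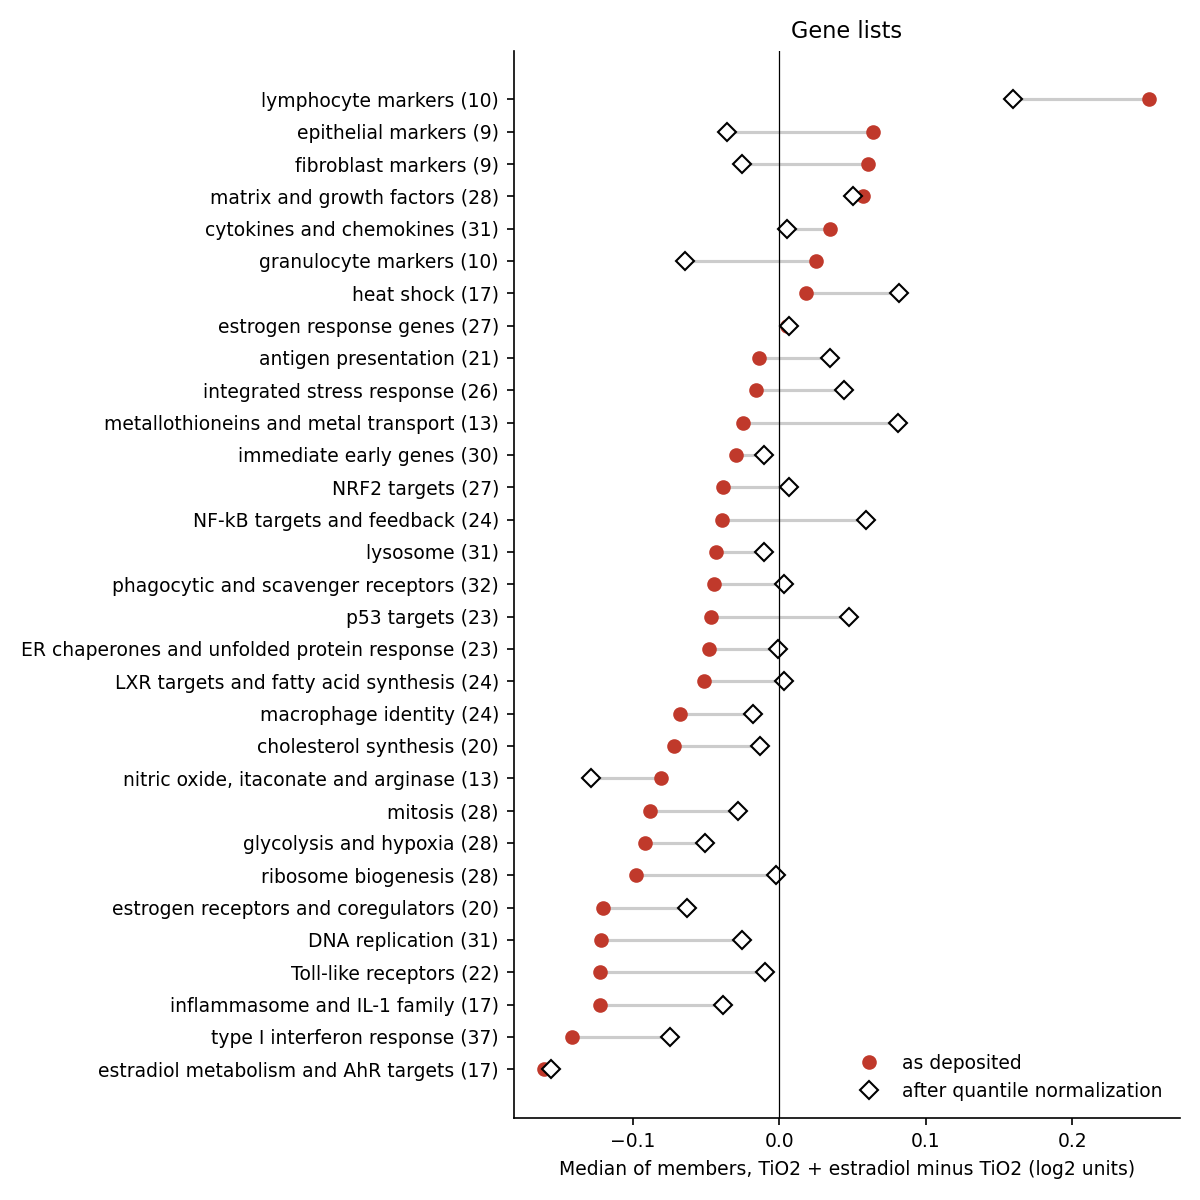
Median log2 difference, TiO2 plus estradiol minus TiO2, of the measured members of 31 gene lists (number of members in brackets), as deposited (filled circles) and after quantile normalization (open diamonds). Most bright lists lie left of 0 as deposited and nearer to it after normalization, and the lymphocyte markers lie highest, at 0.25 and 0.16.

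Markers of other cells were dim in all groups. The 10 lymphocyte markers averaged 3.78 to 3.97 log2 units with TiO2 plus estradiol, against 3.54 to 3.69 with TiO2, and 3.65 to 3.85 on the other arrays. All 10 lay above 0, with a median of 0.25, and 2 were apart and higher, beside 7.36% of all genes. The T cell receptor chain gene Cd3e had 4.16, 4.26 and 4.46 with TiO2 plus estradiol, against 3.74, 3.62 and 4.07 with TiO2 (0.48 ± 0.16, adjusted p = 0.247 in limma). The cytotoxic granule gene Nkg7 had 4.87, 4.87 and 5.03 with TiO2 plus estradiol, against 4.56, 4.63 and 4.07 with TiO2 (0.51 ± 0.16). These markers have a median at percentile 27.2 of level, and in the bin of all genes at that level 69.0% were higher. Epithelial markers averaged 4.37 to 4.43 with TiO2 plus estradiol and 4.26 to 4.36 with TiO2. Fibroblast markers averaged 4.08 to 4.18 with TiO2 plus estradiol and 3.93 to 4.10 with TiO2, and granulocyte markers 3.47 to 3.53 with TiO2 plus estradiol and 3.35 to 3.54 with TiO2. The macrophage list averaged 8.58 to 8.66 with TiO2 plus estradiol and 8.61 to 8.75 with TiO2. All arrays came from 1 cell line, and the cause of these differences was not tested.

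Estradiol was also given to cells without particles and to cells with talc, on arrays not used in the comparison above. Estradiol against vehicle gave 0 passing genes in limma and 1124 at an unadjusted p under 0.05 (4.87%). Talc plus estradiol against talc gave 0 and 1521 (6.58%). The difference between estradiol with TiO2 and estradiol without particles, tested directly, gave 0 passing genes and 1860 at an unadjusted p under 0.05 (8.05%), with a smallest adjusted p of 0.0565. Against estradiol with talc it gave 0 and 3206 (13.9%), with a smallest adjusted p of 0.0987. At this threshold, the estradiol difference with TiO2 was not shown to differ from that in either other setting for any gene.

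D630033O11Rik gave the smallest p of the first test, at 1.17 ± 0.17 between the estradiol differences with TiO2 and without particles. Cpt1b, the muscle form of the transferase that admits fatty acids to mitochondria, came with the widest gap. It had 6.87, 6.90 and 6.77 with TiO2 plus estradiol, against 5.58, 5.38 and 4.88 with TiO2, and averaged 5.06 ± 0.67 with estradiol and 6.23 ± 0.41 with vehicle (SD, n = 3 each). The estradiol differences were 1.57 ± 0.36 with TiO2 and -1.16 ± 0.36 without particles, the test between them gave 2.73 ± 0.51 (adjusted p = 0.215 in limma), and the gene rests on 1 probe set. Il18bp was next on the lower side, with estradiol differences of -0.64 ± 0.13 with TiO2 and 0.47 ± 0.13 without particles (-1.11 ± 0.18 between them, adjusted p = 0.18 in limma). Its means were 4.92 ± 0.22 with TiO2 plus estradiol, 5.55 ± 0.21 with TiO2, 5.31 ± 0.01 with estradiol and 4.84 ± 0.13 with vehicle (SD, n = 3 each).

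Against the talc setting, Cfap58 and Pirt, a regulator of sensory TRP channels, led on the higher side. Pirt had 4.90, 4.65 and 4.94 with TiO2 plus estradiol, against 3.86, 4.16 and 3.64 with TiO2. Its estradiol differences were 0.94 ± 0.19 with TiO2 and -0.69 ± 0.19 with talc (1.63 ± 0.27 between them, adjusted p = 0.0987 in limma), and its brightest probe set gave 2.46 with TiO2. Sertad3 led the lower side, at -0.60 ± 0.12 with TiO2 and 0.37 ± 0.12 with talc. Cdkn2b, at 0.65 ± 0.12 with TiO2 and -0.29 ± 0.12 with talc, and Cdc25c, at -0.43 ± 0.11 with TiO2 and 0.44 ± 0.11 with talc, were among the 10 leading genes of this test.

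Across all 23102 genes, which are not independent, the estradiol difference with TiO2 had a Pearson correlation of 0.04 with that without particles (Spearman 0.05) and of -0.21 with that with talc (Spearman -0.23). These comparisons share no array. The tilt by level ran in opposite directions with TiO2 and with talc, and after quantile normalization the Pearson correlation with talc was -0.15.

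**Figure D5:**
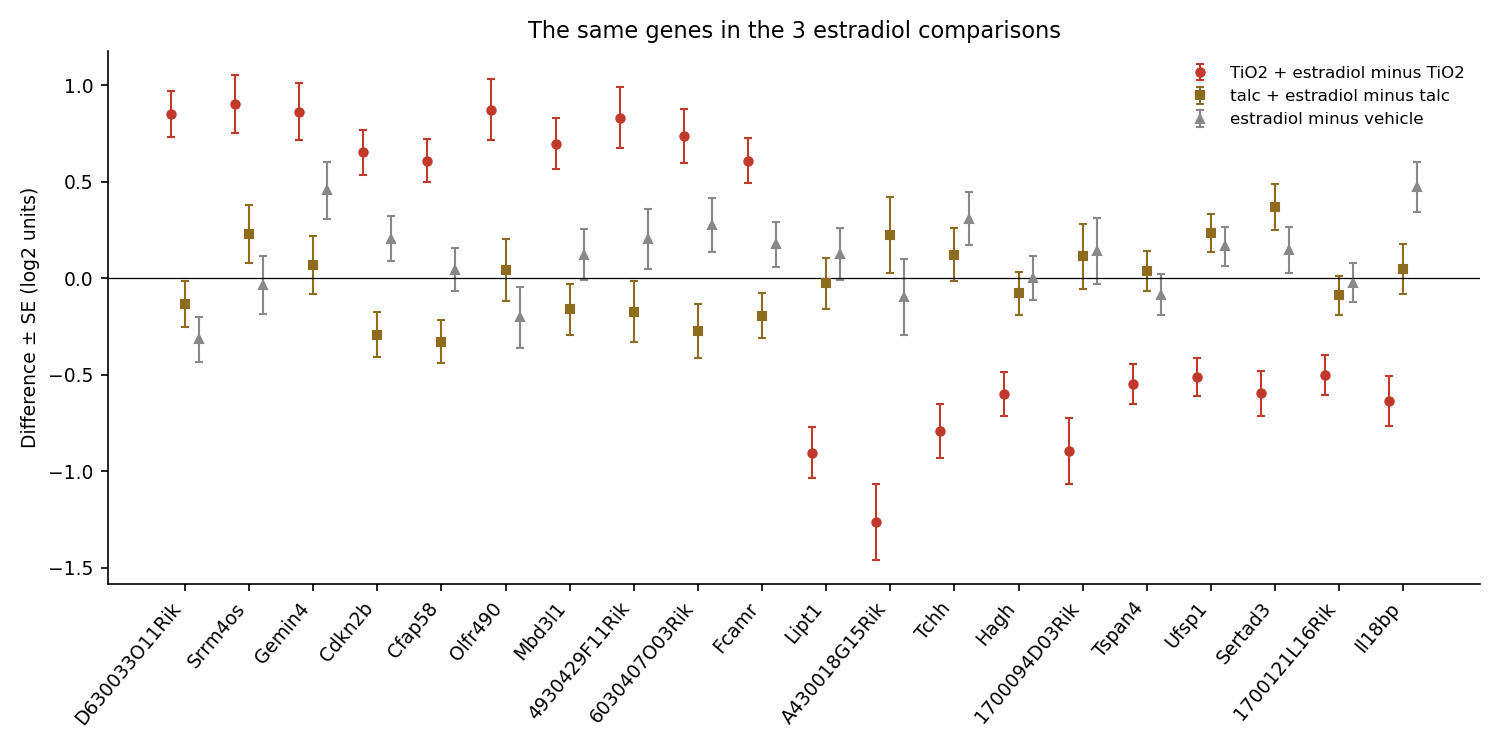
Log2 difference with its standard error for the 20 genes with the smallest p-values, for TiO2 plus estradiol minus TiO2 (circles), talc plus estradiol minus talc (squares) and estradiol minus vehicle (triangles). The genes were chosen on the circles, which lie from 0.61 to 0.90 or from -1.26 to -0.50, and the squares and triangles lie within 0.50 of 0.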

How the data were processed

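The authors deposited an intensity for each of 269751 probe sets on a linear scale, from 1.458 to 17256. The tool was RMA, per the submitters' processing notes, and its version, summary level and genome build are not given in the sources used here. Here log2 was taken, and a gene's value was the mean of its probe sets with a single symbol. These were 233753 probe sets of 23102 genes, with a median of 8 a gene; 5106 with several symbols and 30892 with none were left out, and 2247 old symbols were updated. Opposite movements of a gene's probe sets cancel in this mean. Values were read with the data.table package, version 1.17.8, in R 4.3.3, and limma 3.58.1 fitted a mean per group to all 18 arrays, with 12 residual and 4.57 prior degrees of freedom; tests were two-sided with Benjamini-Hochberg adjustment over all genes. The fit was tested on simulated data with independent genes and no tilt by level, which cannot show how it behaves where there is a tilt. The number of arrays limits the precision.

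Genes named are those that passed, the 10 smallest p-values in each direction, up to 4 members of each gene list with the smallest p-values, and up to 5 genes in each direction of the tests between settings; not all are printed. Macrophage markers and well known estrogen receptors and targets were added as levels. The comparison and the 31 lists (726 genes, 700 measured) were chosen with earlier results of these data known, so list counts and medians are descriptions. Replicate numbers follow accession order.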

Additional observations from a re-analysis of the deposited data

How the results depend on the processing

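Reading each gene from its brightest probe set gave 19 passing genes (17 higher and 2 lower) in place of 2; D630033O11Rik (adjusted p = 0.407 in limma) and Lipt1 (0.92, with the sign turned) were not among them. There were 5 after quantile normalization and 25 (23 higher) after subtraction of upper quartiles. The count was 0 with the median of the probe sets, array weights, the upper quartile as a covariate, a fit of the 6 arrays alone, or each probe set on its own, where 20817 had an unadjusted p under 0.05. That covariate did not overlap between TiO2 plus estradiol and TiO2, so it is partly confounded with the comparison. Leaving out single arrays gave 0 to 2, and 1 without TiO2 plus estradiol replicate 3. A test of the genes above the median level gave 3, Gemin4, Cdkn2b and Lipt1. The test against estradiol without particles gave 1 gene after subtraction of upper quartiles and 0 to 4 with single arrays left out, the 4 without TiO2 replicate 2. The test against talc gave 8 among genes above the median level, 15 after subtraction of upper quartiles and 0 to 2 with single arrays left out. List medians below 0 numbered 10 with the brightest probe set, 2 after subtraction of upper quartiles and 30 after subtraction of array medians. The correlation with estradiol without particles was 0.080 with the brightest probe set and -0.027 to 0.075 with arrays left out. That with talc was -0.30 above the median level, -0.15 after quantile normalization, -0.15 after cyclic loess (chosen after seeing the data, as was quantile normalization for the correlations) and -0.24 to -0.15 with arrays left out. With the brightest probe set the sign turned for Lipt1 (0.087), Hagh (0.054), Il18bp (0.35), Hsd17b11 (0.0092), Ahr (0.44), Zbp1 (-0.032), Ikbke (0.031), Cd83 (0.0019), Cebpb (0.21), Gstp1 (0.46) and Rfc2 (0.047). The difference kept its sign but shrank by over 1.5 times for 1700094D03Rik (-0.39), 6030407O03Rik (0.44), Ccl22 (0.18), Ccl3 (0.080), Cd40 (-0.081), Cdc25c (-0.13), Gata3 (0.12), Irf1 (-0.17), Ncoa1 (-0.14), Ncoa2 (-0.15), Ppp1r15a (-0.23), Prim2 (-0.055), Siah2 (-0.13), Stat2 (-0.12), Tchh (-0.43), Tlr6 (-0.13), Tspan4 (-0.076), Ttk (-0.012) and Ufsp1 (-0.20), and grew as much for Esr1 (-0.72), Pgr (2.45), Pirt (2.46) and Polr1b (-0.78). The sign turned with the median of the probe sets for Siah2 (0.0044), and with the covariate for Kcnk5 (-0.026) and Nkg7 (-0.18). The causes were not tested. No paired analysis was possible because the array numbers in the labels run on across groups and are shared by none.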
